A study of Mus musculus with 11 samples.

Results

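The comparison set 4 libraries of ribosome-protected fragments (RPFs, or footprints) from the cortex of the occluded, ipsilateral hemisphere against 4 from the opposite, contralateral hemisphere, out of 11 libraries in the series. A footprint is the short piece of messenger RNA that a ribosome shields from nuclease, so its count follows how much of a transcript is being translated. All mice were wildtype C57BL6 aged 7 to 8 weeks. In both groups the right middle cerebral artery was closed with a nylon filament for 35 min (MCAO, middle cerebral artery occlusion) under isoflurane, with the common carotid artery tied off, and cortex was taken after 3 h of reperfusion. The contralateral hemisphere therefore comes from operated animals with the same anaesthesia and surgery, and is not an untouched control. The 3 sham libraries came from mice whose arteries were exposed with no filament. They entered the choice of transcript, the filter on low counts, the scaling and the shared estimate of spread, but neither of the group means compared. Their levels are given beside the results as a reference. Members were chosen by their titles: ipsilateral replicates 2, 4, 5 and 6 and contralateral replicates 1, 4, 5 and 6. The number names the day of surgery, so days 4, 5 and 6 gave 1 library on each side. Whether the libraries of a day came from the same animal, and how many animals a library pools, is not stated. The tissue entry of the ipsilateral samples names the opposite hemisphere, against their titles and descriptions, and the titles were followed.

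Per gene, the transcript with the highest summed count over the 11 libraries stood for the gene. Counts over these transcripts ranged from 35068 to 137341 per ipsilateral library (median 103476) and from 137372 to 571351 per contralateral library (median 227277). On days 4, 5 and 6 the contralateral total was 3.91, 3.65 and 4.62 times the ipsilateral one. On these days the same share of footprints therefore rests on fewer counts on the occluded side. Ipsilateral replicate 4 was the shallowest, with a count of 0 in 243 of 4338 genes, and it stood apart from the other 7 libraries on the first principal component (39.4% of the variance). The second component (18% of the variance) set ipsilateral replicate 6 apart. Total RNA was not analysed, and more transcript and more ribosomes per transcript cannot be told apart. Of 25 listed markers of excitatory cortical neurons and cortical layers, 19 were tested. The layer genes Cux1, Bcl11b, Fezf2 and Foxp2 were among those not analysed here. The summed level of the 19 was 7861 to 10045 CPM (counts scaled to a common library size by edgeR) in ipsilateral libraries. In contralateral libraries it was 8542 to 11191 CPM. None of the 19 had a count of 0 in any library. Tested genes had passed a filter on low counts, so their presence does not check the tissue.

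Closing the middle cerebral artery deprives the overlying cortex and the striatum of blood, and reopening it restores flow to tissue that has lost energy and ion balance. Cells that survive the first hours turn down most protein synthesis and translate stress genes: chaperones that bind unfolded proteins and the immediate early genes that neurons switch on within minutes of strong depolarisation. Myelin proteins, globins and microglial complement genes are abundant in oligodendrocytes, red blood cells and microglia, and report mainly on those cells.

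The strongest difference between the hemispheres came from a pair of neighbouring chaperone genes whose sequences show why they are described together. Hspa1a (chromosome 17, 34969190 to 34972156, minus strand, 1 exon, mm10) and Hspa1b (chromosome 17, 34956436 to 34959238, minus strand, 1 exon) encode the stress-inducible form of the HSP70 chaperone. Their coding sequences of 1923 and 1926 nt in GENCODE vM21 were 99.4% identical, with 8 differing bases, 3 gap positions and a longest identical run of 638 nt, which is longer than any footprint. The stretch at coding positions 1327 to 1416 is shown in both, with the bases that differ in capitals:
Hspa1a: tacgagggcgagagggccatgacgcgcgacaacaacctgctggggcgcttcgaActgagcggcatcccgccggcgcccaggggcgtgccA
Hspa1b: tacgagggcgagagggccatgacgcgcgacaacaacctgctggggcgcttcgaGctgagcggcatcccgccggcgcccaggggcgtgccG
The 250 bases before the start of each gene (RefSeq, GRCm38.p6) are shown because the pair moved together, and were 98.8% identical (247 of 250 bases). The capitals mark the only match of GAANNTTC or TTCNNGAA, the paired half-sites of the heat shock element that heat shock factors bind, at position -104 from the start. The windows are chr17:34972157-34972406 for Hspa1a and chr17:34959239-34959488 for Hspa1b, both on the minus strand:
Hspa1a: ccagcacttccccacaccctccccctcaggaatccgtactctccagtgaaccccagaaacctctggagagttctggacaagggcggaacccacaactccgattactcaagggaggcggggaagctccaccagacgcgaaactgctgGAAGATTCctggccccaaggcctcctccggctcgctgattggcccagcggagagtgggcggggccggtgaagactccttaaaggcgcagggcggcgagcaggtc
Hspa1b: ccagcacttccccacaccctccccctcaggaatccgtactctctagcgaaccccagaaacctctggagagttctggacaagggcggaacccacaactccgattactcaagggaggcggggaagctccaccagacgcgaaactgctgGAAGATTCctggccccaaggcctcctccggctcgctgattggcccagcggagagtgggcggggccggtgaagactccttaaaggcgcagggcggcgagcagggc
A match was present in 12.8% of 32817 such windows, so it is common and is given as a description. The alpha globin genes Hba-a1 and Hba-a2 are a second near-identical pair, with 1 differing base in coding sequences of 426 nt. Coding positions 292 to 381 hold that base, in capitals:
Hba-a1: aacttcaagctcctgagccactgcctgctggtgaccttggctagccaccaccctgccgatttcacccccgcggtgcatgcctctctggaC
Hba-a2: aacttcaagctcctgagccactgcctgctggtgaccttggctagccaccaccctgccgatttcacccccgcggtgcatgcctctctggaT
The immediate early gene Fos had the largest change among the called genes outside the HSP70 pair, and its window (chr12:85473640-85473889, plus strand) holds 2 matches of TGACG or CGTCA, the core of the cyclic AMP response element, at -129 and -66, in capitals:
Fos: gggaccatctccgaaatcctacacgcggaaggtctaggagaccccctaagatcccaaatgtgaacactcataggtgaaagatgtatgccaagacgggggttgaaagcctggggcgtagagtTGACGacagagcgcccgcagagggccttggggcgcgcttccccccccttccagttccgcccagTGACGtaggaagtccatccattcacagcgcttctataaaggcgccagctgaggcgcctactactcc
This motif was present in 17.7% of the windows.

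Few of the tested genes passed between the hemispheres, and a gene that did not pass is not shown to be alike on both sides. Of 3835 genes tested, 14 passed (0.365%; edgeR quasi-likelihood test, Benjamini-Hochberg adjusted p under 0.05): 13 were higher on the occluded side (0.339%) and 1 was lower (0.0261%). Of the 13, 11 are described here: the chaperones Hspa1a, Hspa1b, Cryab and Dnajb1, the activity-regulated Fos and Nptx2, the myelin genes Mbp, Mag and Cldn11, and the globins Hba-a1 and Hba-a2. The gene that fell was Cacna2d1, a calcium channel subunit. At an unadjusted p under 0.05 there were 186 higher (4.85%) and 106 lower genes (2.76%), or 7.61% in all. The libraries of the groups did not overlap in 90 genes on the higher side (2.35%) and in 79 on the lower side (2.06%), or 4.41% in all. The median log2 change of all genes was 0.013, and 1972 of 3835 genes (51.4%) were above 0. Together the 13 higher genes took 2.12 ± 0.386% (SD, n = 4) of the footprints on the occluded side, 0.917 ± 0.0704% (n = 4) on the opposite side and 0.973 ± 0.034% (n = 3) in sham. These shares were 1.56 to 2.43% in the ipsilateral libraries and 0.826 to 0.997% in the contralateral ones. The genes were chosen as higher in these libraries, so this separation follows from the choice. The near-identical copies among the 13 may also have the same reads counted more than once.

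**Figure D1:**
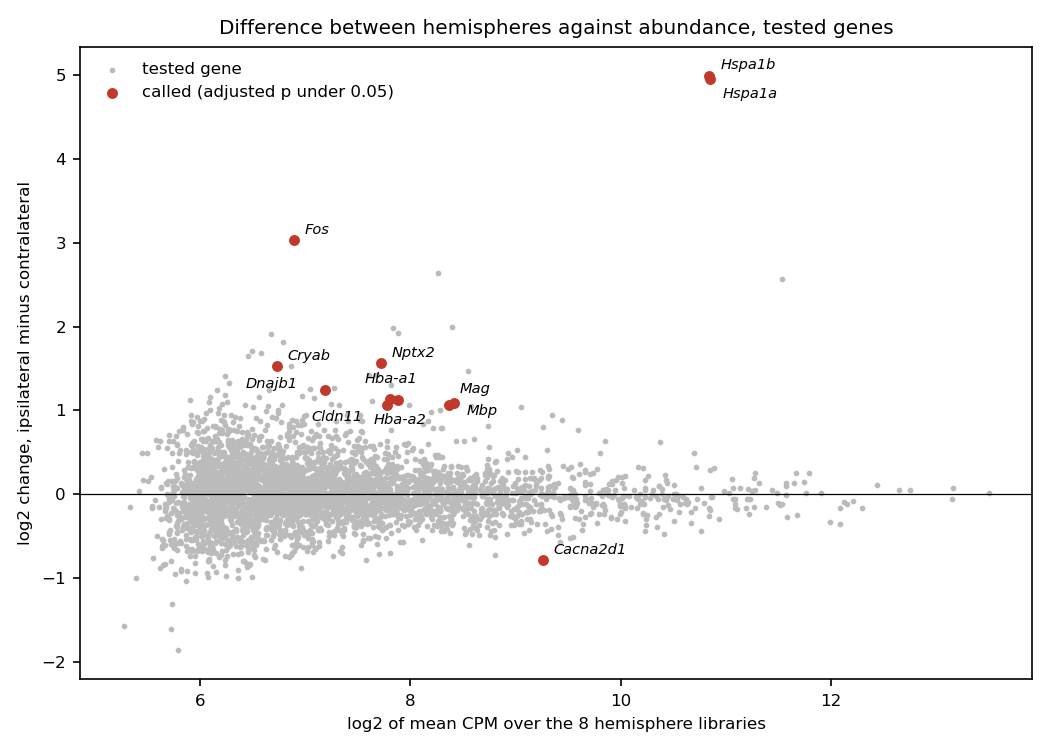
Log2 change between the hemispheres (vertical axis, ipsilateral minus contralateral) against the log2 of the mean CPM over the 8 hemisphere libraries (horizontal axis) for the tested genes; 12 called genes are in red. Most genes lie around 0, with Hspa1a, Hspa1b and Fos highest among the called genes and Cacna2d1 the called gene below 0.

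Of the chaperones, the HSP70 pair had by far the largest differences. Hspa1a measured 3206, 5280, 1695 and 4095 CPM in ipsilateral replicates 2, 4, 5 and 6, and 60.6, 161, 131 and 105 CPM in contralateral replicates 1, 4, 5 and 6. Hspa1b measured 3154, 5133, 1732 and 4155 CPM against 53.9, 145, 138 and 99.5 CPM. In both genes replicate 5 was the lowest of the occluded libraries, and every ipsilateral library was above every contralateral one. The log2 change was 4.95 ± 0.40 (SE) for Hspa1a and 4.99 ± 0.39 for Hspa1b, or 30.8-fold and 31.7-fold (edgeR adjusted p = 0.00121 for each). Sham libraries held 70.7 to 141 CPM of Hspa1a and 78.5 to 141 CPM of Hspa1b, in the range of the contralateral libraries. Together the pair took 0.703 ± 0.292% of the footprints on the occluded side, 0.0223 ± 0.00799% on the opposite side and 0.0206 ± 0.00711% in sham. Since 64.6% of the 28-nt words of Hspa1a occur in Hspa1b, the split of reads over these copies cannot be relied on. Whether a read that matches both copies was counted for each is not stated. The share of the pair may therefore count reads more than once. On the other strand, Gm20481 also covers 564 nt of Hspa1a. Both calls were lost when the 3 shared days were fitted with no pairing (adjusted p = 0.184 for each).

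Cryab, which encodes the small heat shock protein alpha B-crystallin (chromosome 9, 50752907 to 50756543), measured 202, 117, 173 and 129 CPM in the ipsilateral libraries and 47.2, 68.8, 67.3 and 48.0 CPM in the contralateral ones. The groups did not overlap, and the log2 change was 1.53 ± 0.29 (edgeR adjusted p = 0.0047). The shallowest library rests on 4 Cryab counts. Dnajb1, a J-domain partner of HSP70 (chromosome 8, 83608193 to 83612653), measured 157, 176, 99.0 and 387 CPM against 80.8, 61.2, 121 and 85.3 CPM, a log2 change of 1.24 ± 0.30 (edgeR adjusted p = 0.0471). Its groups overlapped, with ipsilateral replicate 5 below contralateral replicate 5, and replicate 6 was far above the others. With the day of surgery as a block the adjusted p was 0.124 for Cryab and 0.139 for Dnajb1. Cryab was not called without contralateral replicate 6 (0.0937) or ipsilateral replicate 2 (0.122). The Dnajb1 call was lost without any of sham replicates 1, 2 and 5 (0.0902, 0.072, 0.0964), contralateral replicates 1, 4 and 6 (0.207, 0.11, 0.267) or ipsilateral replicates 4 and 6 (0.0976, 0.935), and without the last the log2 change was 0.62.

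Most of the heat shock list did not pass. Of its 31 tested members, 4 rose, none fell, 27 did not pass and 22 were above 0, with a median log2 change of 0.22, or 0.19 over the 29 members without the HSP70 pair, against 0.013 for all genes. DESeq2 and limma-voom each called 3 of the 31 higher. The HSP90 chaperones Hsp90ab1 and Hsp90aa1 did not pass. Hsp90ab1 measured 5755 ± 440 CPM (n = 4) against 5324 ± 54.8 CPM (n = 4), a log2 change of 0.11 ± 0.12 (edgeR adjusted p = 0.891). Hsp90aa1 measured 3534 ± 469 against 2960 ± 437 CPM (0.25 ± 0.15, edgeR adjusted p = 0.718). Within days 4, 5 and 6 Hsp90aa1 differed by 0.75, 0.17 and -0.20, with no common direction. Hsp90aa1 shares 71.9% of its words with other genes, mostly the copy Gm12346. In the unfolded protein and integrated stress response list, 0 of 21 tested members were called by edgeR, DESeq2 or limma-voom, 3 were higher at an unadjusted p under 0.05, and the median was 0.06. Hspa5, the chaperone BiP of the endoplasmic reticulum, measured 1689, 2053, 1757 and 2228 CPM against 1307, 1423, 1477 and 1297 CPM, so the groups did not overlap (0.49 ± 0.14, edgeR adjusted p = 0.174). The transcription factor Atf4 measured 105, 117, 12.4 and 138 CPM against 40.4, 53.5, 43.7 and 37.3 CPM, with replicate 5 alone below the contralateral range (1.16 ± 0.43, edgeR adjusted p = 0.406).

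**Figure D2:**
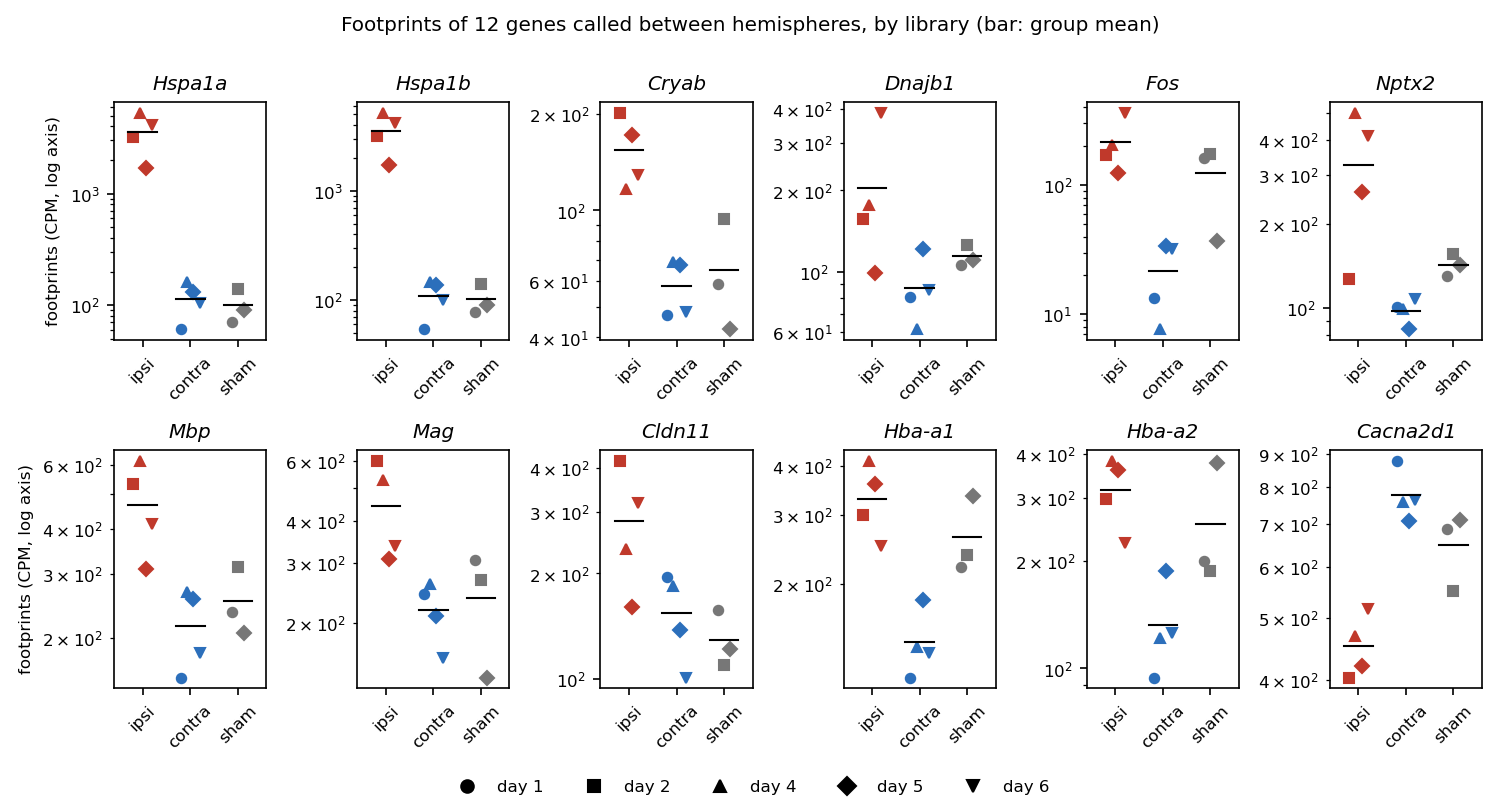
Footprints in CPM (log axis, a scale of its own in each panel) of 12 called genes in each ipsilateral, contralateral and sham library; marker shapes give the day of surgery and the bar is the group mean. Ipsilateral libraries lie apart from contralateral ones in 10 of the panels, and overlap them in Dnajb1 and Cldn11. The genes were called from these same libraries, so this separation largely follows from the choice. Of all 3835 tested genes, the groups did not overlap in 4.41%.

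Neuronal activity genes were in part higher on the occluded than on the opposite side. Fos, a subunit of the AP-1 transcription factor (chromosome 12, 85473890 to 85477273), measured 172, 205, 124 and 361 CPM in ipsilateral replicates 2, 4, 5 and 6, and 13.5, 7.65, 33.6 and 32.0 CPM in contralateral replicates 1, 4, 5 and 6. Behind these stand 23, 7, 10 and 42 counts against 2, 1, 10 and 18. No contralateral library reached an ipsilateral one, and the log2 change was 3.03 ± 0.48 (edgeR adjusted p = 0.00609). Sham libraries held 161, 173 and 37.1 CPM, so 2 of the 3 were within the ipsilateral range. Against sham, the fitted log2 change was 0.94 ± 0.44 on the occluded side (edgeR adjusted p = 0.635) and -2.09 ± 0.52 on the opposite side (0.636), and neither passed. limma-voom did not call Fos between the hemispheres (adjusted p = 0.102).

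Nptx2, a secreted pentraxin that gathers AMPA-type glutamate receptors at synapses (chromosome 5, 144545902 to 144557478), measured 127, 499, 260 and 413 CPM against 101, 99.4, 84.1 and 108 CPM. The contralateral libraries were tightly grouped and the ipsilateral ones spread, with replicate 2 just above the contralateral range. The log2 change was 1.56 ± 0.28 (edgeR adjusted p = 0.00247), and without ipsilateral replicate 6 the adjusted p was 0.0507. Sham libraries, at 130 to 157 CPM, lay above the contralateral range and inside the ipsilateral one.

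Of the 12 tested immediate early genes, Fos was the 1 called and 11 did not pass. All 12 were above 0, with a median of 0.87 and 8 at an unadjusted p under 0.05, but 28 of the 41 listed genes were not in the table and are not analysed here, and the filter removed 1 more. With upper quartile scaling, which moved the all-gene median to -0.053, 11 of 12 were above 0. The summed level was 1386 to 3390 CPM on the occluded side, 849 to 1218 CPM on the opposite side and 1440 to 2572 CPM in sham. The group means were 2135, 1082 and 2060 CPM in the same order, so the occluded side was near sham and the opposite side below it. The clock gene Per1 measured 97.1, 323, 74.2 and 215 CPM against 121, 53.5, 63.9 and 55.1 CPM (1.17 ± 0.34, edgeR adjusted p = 0.174). Egr1, a zinc finger transcription factor, measured 172, 411, 285 and 525 CPM against 168, 130, 168 and 167 CPM, while sham held 636, 550 and 201 CPM (1.07 ± 0.40, adjusted p = 0.518). Jun, a partner of Fos, measured 135, 176, 49.5 and 379 CPM against 128, 45.9, 77.4 and 92.4 CPM (1.15 ± 0.40, adjusted p = 0.395). These genes were uneven on the occluded side: replicates 4 and 6 were the highest for each, and replicates 2 and 5 were near or within the contralateral range for Per1 and Jun.

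The late activity-regulated list, genes of synapses and secretion that follow the early wave, had 22 tested members. Of these Nptx2 was called higher and 21 did not pass, with 13 above 0 and a median of 0.18. The mean summed level of the list was 11484 CPM on the occluded side, 10751 CPM on the opposite side and 11403 CPM in sham. Its next members by p were Vgf, a secreted neuropeptide precursor, and Pcsk1, the convertase that cuts such precursors. Vgf measured 912, 1232, 878 and 1445 CPM against 640, 910, 720 and 622 CPM (0.63 ± 0.17, edgeR adjusted p = 0.129), with an overlap of 1 library on each side. Pcsk1 measured 262, 323, 297 and 258 CPM against 141, 199, 165 and 153 CPM, with no overlap (0.77 ± 0.22, adjusted p = 0.174).

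Some myelin genes rose on the occluded side. Of 19 tested oligodendrocyte and myelin markers, 4 rose, of which 3 are described, 0 fell and 15 did not pass, while 18 were above 0 and 12 had an unadjusted p under 0.05; the median was 0.72. In bulk cortex, more cells of a type and more RNA per cell cannot be told apart. Mbp, the basic protein that compacts myelin, measured 531, 616, 309 and 413 CPM against 155, 268, 256 and 181 CPM (1.09 ± 0.22, edgeR adjusted p = 0.00987). Mag, an adhesion protein between axon and myelin (chromosome 7, 30899183 to 30914327), measured 598, 528, 309 and 336 CPM against 243, 260, 209 and 158 CPM (1.06 ± 0.24, adjusted p = 0.035). Both genes were higher in every ipsilateral library than in any contralateral one.

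Cldn11, the claudin of myelin's tight junctions (chromosome 3, 31149920 to 31164324), measured 418, 235, 161 and 318 CPM against 195, 184, 138 and 101 CPM (1.07 ± 0.25, edgeR adjusted p = 0.0372). Here ipsilateral replicate 5 fell within the contralateral range. The same library stood out in the sum of the 19 markers, which was 11904, 9915, 5530 and 7967 CPM on the occluded side and 5110 to 6310 CPM on the opposite side, with sham at 4739 to 5560 CPM. Replicate 5 was thus inside the contralateral range, and replicate 2, which has no contralateral partner of its day, was the highest. None of the 19 had a count of 0 in any library. Vascular and meningeal markers followed the same order at its ends: the summed endothelial and mural markers were 2578, 1848, 1447 and 2099 CPM in the ipsilateral libraries (1410 to 1889 CPM contralateral), and the summed meningeal, fibroblast and choroid plexus markers 3430, 2904, 1658 and 2856 CPM (1960 to 2085 CPM contralateral). Both sums, like that of myelin, were highest in replicate 2 and lowest in replicate 5. Ptgds and Enpp2 are in both the myelin and the meningeal list, so part of that shared order comes from shared genes. The median log2 change was 0.41 over 4 tested endothelial and mural markers of 26 listed and 0.49 over 5 tested meningeal ones of 16, none was called by edgeR, DESeq2 or limma-voom, and 2 of each list were higher at an unadjusted p under 0.05. None of these 9 markers had a count of 0 in any library, and their part in the myelin result was not tested.

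The myelin calls depended on single libraries. With the day as a block the adjusted p was 0.0813 for Mbp, 0.0508 for Mag and 0.139 for Cldn11. Without ipsilateral replicate 2 it was 0.0995 for Mbp, 0.285 for Mag and 0.381 for Cldn11. Without contralateral replicate 1 it was 0.0971, 0.0971 and 0.0545, and without contralateral replicate 6 it was 0.148, 0.312 and 0.521, in the same order. Without ipsilateral replicate 4, Mag (0.124) and Cldn11 (0.0602) were not called, and without contralateral replicate 5 both were at 0.145. Mag was also not called without contralateral replicate 4 (0.051), and Cldn11 without sham replicate 1 or 5 (0.0733, 0.0708) or ipsilateral replicate 6 (0.121). Over these leave-one-out fits the log2 change stayed between 0.96 and 1.24 for Mbp, 0.79 and 1.21 for Mag, and 0.77 and 1.27 for Cldn11. Mbp also depended on the transcript: its longest one, with 12 to 39 counts per contralateral library, gave an adjusted p of 0.568.

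Further oligodendrocyte genes came next by p without passing. Cnp, a myelin enzyme, measured 732, 528, 346 and 516 CPM against 411, 390, 249 and 234 CPM (0.81 ± 0.22, edgeR adjusted p = 0.11). The iron carrier transferrin, Trf, measured 1375, 792, 520 and 688 CPM against 492, 581, 407 and 348 CPM (0.95 ± 0.23, adjusted p = 0.076). The annotated read-through gene Gm20425 shares 2108 nt of exon with Trf on the same strand, so its 0.89 ± 0.21 (adjusted p = 0.0706) is not a separate observation. Qdpr, an enzyme that regenerates tetrahydrobiopterin, measured 127, 88.0, 124 and 146 CPM against 40.4, 61.2, 87.5 and 53.3 CPM, with no overlap by a margin of less than 1 CPM (1.04 ± 0.30, adjusted p = 0.174). Ptgds, the prostaglandin D2 synthase of oligodendrocytes and meninges, measured 2242, 1672, 891 and 1600 CPM against 1010, 1048, 1174 and 970 CPM (0.62 ± 0.17, adjusted p = 0.172). For Ptgds, replicate 5 was below all contralateral libraries and the other 3 were above them.

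Globin footprints were also higher. Hba-a1 (chromosome 11, 32283511 to 32284465) measured 299, 411, 359 and 249 CPM against 115, 138, 182 and 133 CPM (1.13 ± 0.23, edgeR adjusted p = 0.00987), and Hba-a2 (chromosome 11, 32296489 to 32297298) 299, 381, 359 and 224 CPM against 94.3, 122, 188 and 126 CPM (1.14 ± 0.26, adjusted p = 0.0257). As the sequences above show, these are nearly 1 measurement: 91.7% of the words of Hba-a2 occur in Hba-a1. The groups did not overlap in either gene. Sham libraries, at 220 to 334 CPM of Hba-a1 and 188 to 376 CPM of Hba-a2, were within or near the ipsilateral range. The beta globins Hbb-bs and Hbb-bt, also near copies, did not pass: Hbb-bs measured 456, 616, 285 and 284 CPM against 182, 153, 306 and 222 CPM (0.79 ± 0.24, adjusted p = 0.199). The sum of the 4 globins was 1041 to 2024 CPM on the occluded side, 566 to 989 CPM on the opposite side and 895 to 1324 CPM in sham, and none had a count of 0 in any library. As with the HSP70 pair, this sum may count reads that match near copies more than once. Without contralateral replicate 1 or 6 the adjusted p was 0.0818 or 0.121 for Hba-a1, and 0.149 or 0.189 for Hba-a2. Hba-a2 was also not called without contralateral replicate 4 (0.0599) or ipsilateral replicate 2, 4 or 5 (0.0967, 0.0784, 0.0734). Without both ipsilateral replicates 4 and 5 the adjusted p was 0.123 for Hba-a1 and 0.208 for Hba-a2.

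Microglial and vascular genes had lower list medians than the myelin genes, and none passed in the fit of all 11 libraries. Of 13 tested microglia markers, 11 were above 0, 5 had an unadjusted p under 0.05, and 0 were called by edgeR, DESeq2 or limma-voom; the median was 0.44. C1qb, a chain of the complement component C1q, measured 157, 293, 111 and 318 CPM against 94.3, 99.4, 94.2 and 110 CPM, with no overlap by a margin of about 1 CPM (1.06 ± 0.28, edgeR adjusted p = 0.0808). C1qc, another chain, measured 157, 176, 148 and 112 CPM against 60.6, 99.4, 80.8 and 85.3 CPM (0.80 ± 0.28, adjusted p = 0.312). The summed microglial level was 5171 to 6220 CPM against 4929 to 5660 CPM, so the groups overlapped through ipsilateral replicate 5 and contralateral replicate 4. Sparc, a matrix protein of vessels and glia, measured 1278, 557, 445 and 516 CPM against 404, 413, 293 and 336 CPM, and most of its log2 change of 1.04 ± 0.26 (adjusted p = 0.167) lay in ipsilateral replicate 2. Of the 25 astrocyte markers 13 were above 0, the median was 0.02 (-0.040 with upper quartile scaling), and the sums were 43099 to 45046 CPM against 39820 to 53384 CPM. edgeR, DESeq2 and limma-voom called 0 of the 25, and 2 had an unadjusted p under 0.05, 1 in each direction.

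**Figure D3:**
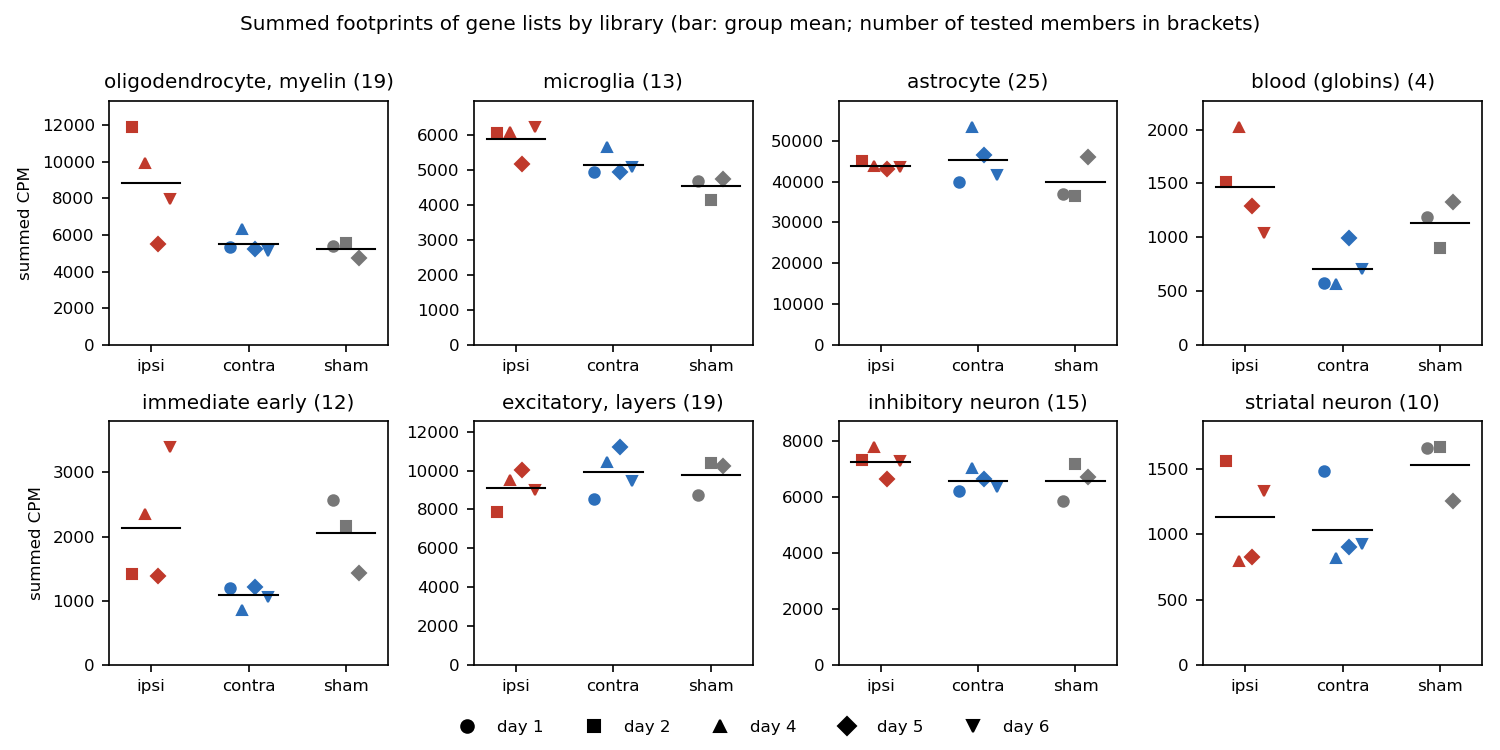
Summed CPM of the tested members of 8 gene lists (vertical axis from 0) in each ipsilateral, contralateral and sham library; marker shapes give the day and bars the group mean. The oligodendrocyte sum is highest in ipsilateral replicate 2 (11904 CPM) and lowest of that side in replicate 5 (5530 CPM), and the globin and immediate early sums of the contralateral libraries lie below all ipsilateral ones.

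Other tools and scalings ended some of these calls. DESeq2 did not call Cldn11 (0.197), Dnajb1 (0.135) or Mag (0.0534), and limma-voom did not call these 3 (0.057, 0.115, 0.0898) or Fos. With upper quartile scaling Cldn11, Dnajb1 and Mag (0.0829 each) and Hba-a2 (0.0578) were not called. With sham left out of the fit, Cldn11 (0.0767) and Dnajb1 (0.133) were not called. Dnajb1 was also lost with RLE scaling (0.0513) and with the longest transcript (0.0536), and Mag (0.0628) and Cldn11 (0.102) with the stricter filter. In the 3 shared days with the day as a block, Cryab (0.106), Cldn11 (0.159), Cacna2d1 (0.122), and Dnajb1, Mag and Mbp (0.0729 each) were not called, and with no pairing Fos and Nptx2 alone of the 12 genes were called.

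The differences within each shared day are given as a description, since the 13 higher genes were called from the same libraries and their direction is largely set by that choice. On day 4 all 13 were above 0 (median log2 difference 1.37), on day 5 12 of 13 (0.89), and on day 6 all 13 (1.25). The exception was Dnajb1 on day 5, at -0.27. Across all tested genes, 536 (14%) were higher on the occluded side on each of the 3 days and 540 (14.1%) were lower. Hspa1b differed by 5.04, 3.55 and 5.24 on days 4, 5 and 6, and Fos by 3.54, 1.59 and 3.12. Day 5 gave the smallest difference for both, as it did for Nptx2 (2.21, 1.51 and 1.83) and Mbp (1.17, 0.26 and 1.14). It did not for Cryab (0.69, 1.23 and 1.25), where day 4 was smallest, or for Hba-a1 (1.50, 0.94 and 0.85), where day 6 was.

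**Figure D4:**
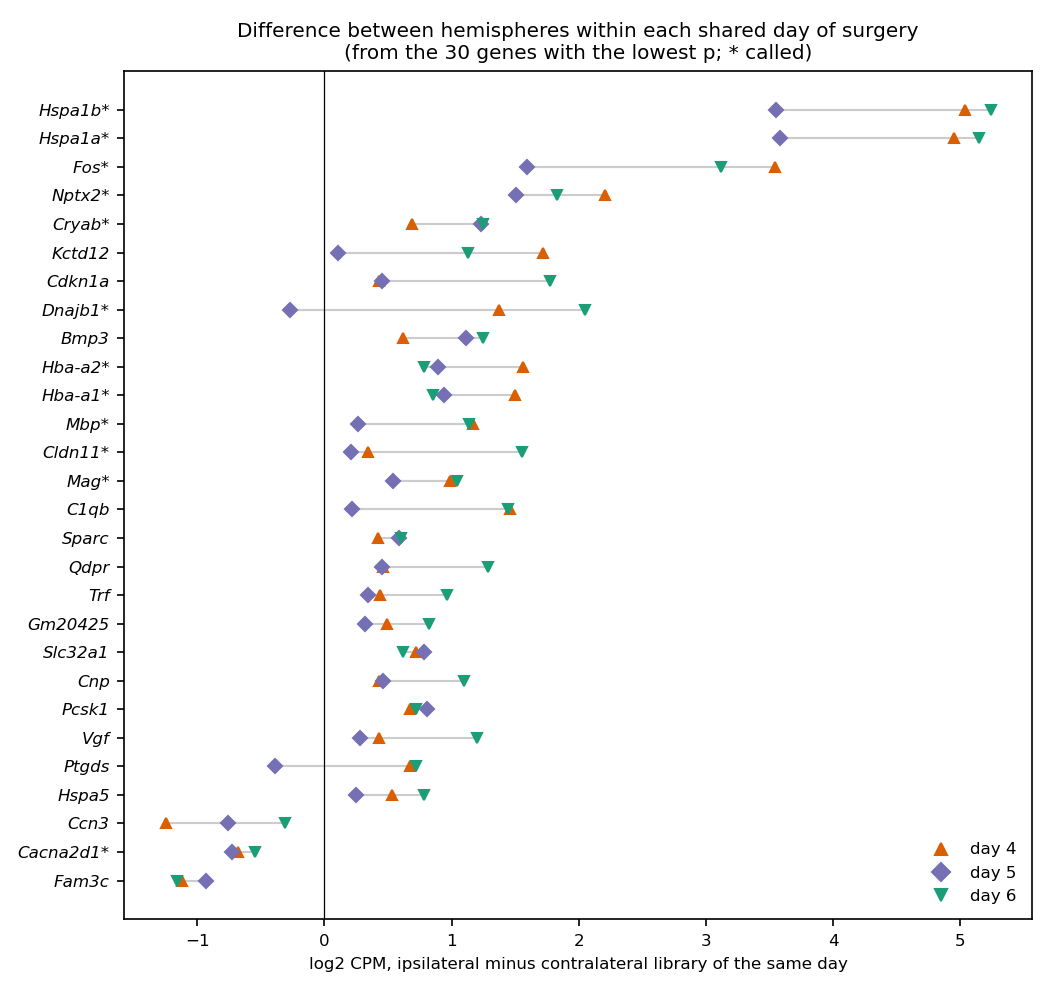
Difference in log2 CPM (prior count of 2) between the ipsilateral and the contralateral library of days 4, 5 and 6 for 28 of the 30 genes with the lowest p; an asterisk marks 12 called genes. Day 5 lies nearest to 0 for Hspa1a, Hspa1b, Fos and Nptx2, and Dnajb1 crosses 0 on that day.

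The 1 gene called lower was Cacna2d1 (chromosome 5, 15934788 to 16371069, 39 exons), which encodes the alpha2delta-1 subunit that brings voltage-gated calcium channels to the membrane. It measured 404, 469, 421 and 516 CPM in ipsilateral and 876, 757, 707 and 762 CPM in contralateral libraries, with sham at 550 to 710 CPM. The highest ipsilateral library was below the lowest contralateral and the lowest sham library. Its log2 change was -0.78 ± 0.17 (edgeR adjusted p = 0.0147), and it fell within each day by 0.68, 0.73 and 0.55 on days 4, 5 and 6. With the day as a block the adjusted p was 0.124, and it was not called without contralateral replicate 1 (0.0926) or 6 (0.0912) or ipsilateral replicate 2 (0.0967), with the log2 change between -0.87 and -0.73 over the leave-one-out fits. Without the 2 shallowest libraries, ipsilateral replicates 4 and 5, the adjusted p was 0.059. Of 14 tested calcium channel subunits, this 1 fell, 13 did not pass, and the median was 0.01 (-0.055 with upper quartile scaling). The related Cacna2d2 lay on the other side, at 157, 88.0, 111 and 181 CPM against 60.6, 61.2, 50.5 and 90.6 CPM (1.05 ± 0.31, adjusted p = 0.174), with counts of 3 to 21 per ipsilateral library.

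A few further genes were lower without passing. Fam3c, which encodes a secreted cytokine-like protein (chromosome 6, 22307882 to 22356098), had few reads on the occluded side, with 1, 1, 3 and 3 counts against 17, 10, 24 and 40. In CPM this was 7.47 to 37.1 against 71.0 to 115, with sham at 55.0 to 126, and the log2 change of -1.86 ± 0.48 had an edgeR adjusted p of 0.076. Ccn3, a secreted matrix protein of cortical neurons, measured 329, 235, 297 and 447 CPM against 633, 574, 511 and 558 CPM, again with no overlap (-0.72 ± 0.19, adjusted p = 0.0867). Among 16 tested glutamate receptors, 4 were above 0 and the median was -0.18. edgeR, DESeq2 and limma-voom called 0 of them, and 2 were lower at an unadjusted p under 0.05. These were the AMPA receptor subunits Gria3, at 628, 528, 594 and 508 CPM against 741, 864, 686 and 879 CPM (-0.48 ± 0.16, adjusted p = 0.265), and Gria2, at 1009 ± 242 against 1394 ± 135 CPM (-0.44 ± 0.16, 0.381).

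The series as a whole concerns glutamate balance in stroke. Of 20 tested genes of glutamate transport and metabolism, 11 were above 0 and the median was 0.06. None was called by edgeR, DESeq2 or limma-voom, and 2 were higher and 1 lower at an unadjusted p under 0.05. The lower one was Slc1a2, the main astrocytic glutamate transporter, at 3206, 3696, 4243 and 4112 CPM against 3490, 6623, 4892 and 4449 CPM; the groups overlapped, and contralateral replicate 4 was highest (-0.35 ± 0.15, edgeR adjusted p = 0.53). The higher ones were the GABA-synthesising decarboxylases Gad1, at 927, 645, 643 and 748 CPM against 512, 436, 555 and 567 CPM with no overlap (0.53 ± 0.16, adjusted p = 0.202), and Gad2, at 717, 117, 285 and 318 CPM against 256, 153, 225 and 231 CPM (0.87 ± 0.30, 0.39). For Gad2, ipsilateral replicate 2, which has no partner of its day, stood far above the others, and the differences within days 4, 5 and 6 were -0.35, 0.32 and 0.45. Slc32a1, which loads GABA into vesicles, measured 418, 411, 297 and 293 CPM against 202, 245, 168 and 186 CPM, also with no overlap (0.84 ± 0.24, adjusted p = 0.174). Over all 15 tested inhibitory neuron markers the median was 0.17, with 11 above 0 and 0 called by any of the 3 tools. Markers of the neighbouring striatum had a median of 0.39 over 10 tested of 18 listed, with sums of 792 to 1562 CPM against 818 to 1482 CPM and 0 called by any of these tools.

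In several further lists no member was called without a day block. The 33 synaptic vesicle release genes had a median of -0.06 with 8 above 0, the 18 ion pumps and exchangers -0.12 with 6 above 0, and the 29 potassium, sodium and HCN channels -0.06 with 9 above 0. The 73 nuclear-encoded oxidative phosphorylation genes (-0.02) and 18 glycolytic enzymes (-0.01) were level. The 49 cytosolic ribosomal proteins had a median of 0.19 with 38 above 0, and 16 cholesterol synthesis genes 0.25 with 12 above 0. Without a day block, edgeR, DESeq2 and limma-voom called none of the members of these 7 lists. In the 3 shared days with the day as a block, edgeR called 1 of the 18 ion pumps and exchangers lower. At an unadjusted p under 0.05 without a block there were 6 higher ribosomal protein genes and 0 lower ones. Rps3, the ribosomal protein with the lowest p, measured 202, 235, 235 and 258 CPM against 155, 122, 151 and 121 CPM, with no overlap (0.76 ± 0.22, edgeR adjusted p = 0.174). Of 7 tested hypoxia and growth arrest genes, 6 were above 0 and 0 were called by these 3 tools; the cell cycle inhibitor Cdkn1a, with a change of 1.24 ± 0.31 (adjusted p = 0.0706), measured 120, 117, 86.6 and 232 CPM against 47.2, 84.1, 60.6 and 60.4 CPM. Ndrg1, a second gene of that list and one also made by oligodendrocytes, measured 179, 88.0, 86.6 and 68.8 CPM against 40.4, 30.6, 53.8 and 56.8 CPM (1.18 ± 0.36, adjusted p = 0.202). Bmp3, a secreted ligand of the bone morphogenetic protein family, measured 127, 88.0, 136 and 163 CPM against 67.4, 53.5, 57.2 and 62.2 CPM (1.16 ± 0.30, adjusted p = 0.076), with 3 to 19 counts per ipsilateral library.

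**Figure D5:**
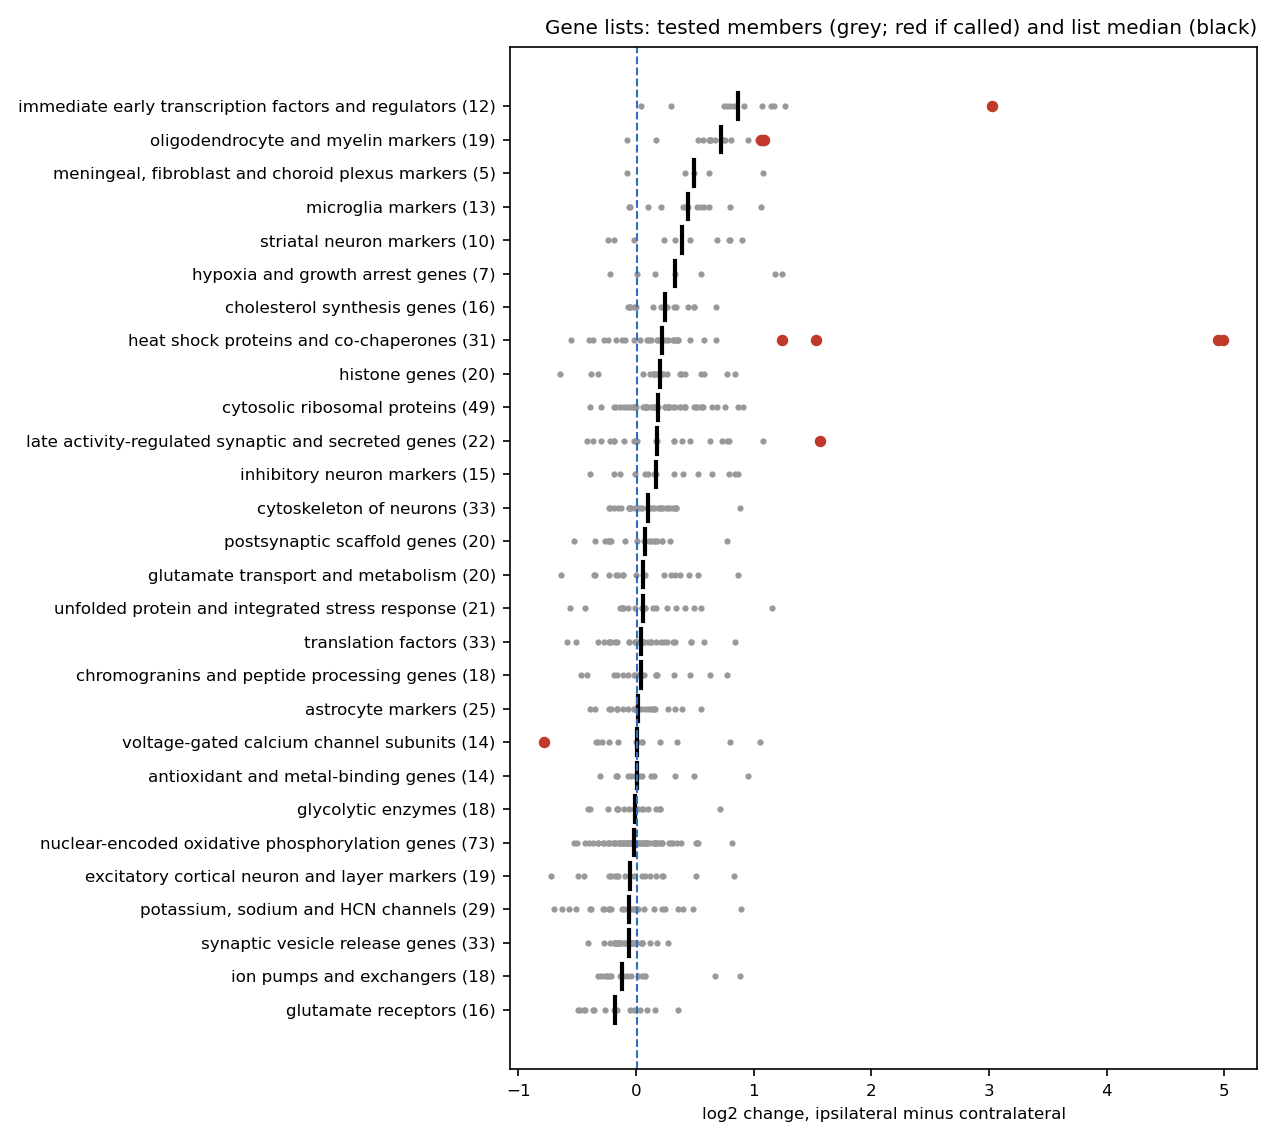
Log2 change (horizontal axis, ipsilateral minus contralateral) of the tested members of 28 gene lists with at least 5 tested members, ordered by median; red points passed the test, black bars are list medians, and the dashed line is the median of all genes. Immediate early genes (0.87) and oligodendrocyte markers (0.72) have the highest medians, and glutamate receptors (-0.18) the lowest.

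A comparison within the 3 shared days, with the day as a block and 6 libraries, brought up another set of genes. It called 26 of 3124 genes (0.832%), 21 higher (0.672%) and 5 lower (0.16%). Of these 26, 8 were among the 14 above, and 18 were not: 13 higher and 5 lower. Without the block the same 6 libraries gave 3 called genes (0.096%). The new genes with known roles in activity, metal binding and complement were Egr1 (1.34 ± 0.26, edgeR adjusted p = 0.00054), Jun (1.41 ± 0.37, 0.0485), the metallothionein Mt2 (1.09 ± 0.28, 0.0426) and C1qb (1.18 ± 0.31, 0.0485). The G protein regulator Rgs3 (1.60 ± 0.41, 0.0426) shares 35.5% of its words with another gene, Gm5763, and Mt2 overlaps an opposite-strand gene over 355 nt. Among those lower were the flippase subunit Tmem30a (-0.80 ± 0.20, 0.0423), the repressor Zbtb18 (-1.50 ± 0.38, 0.0423), the calcium sensor Calm2 (-0.63 ± 0.16, 0.0471) and Fgf12, an intracellular fibroblast growth factor homologue (-1.13 ± 0.30, 0.0485). Across all 11 libraries with the block, none of these 9 genes was called.

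Of the other 8 genes that rose with the 3-day block, 6 had days on which raw counts were close on both sides, although the contralateral libraries were several times deeper. On day 6, where the depth ratio was 4.62, Il25 had 48 ipsilateral and 46 contralateral counts, Fam184b 45 and 45, Fhad1 45 and 53, and Utp14b 91 and 98. Ccn4 had 35 and 20 counts on day 4, 5 and 4 on day 5, and 24 and 26 on day 6, and Trpm8 39 and 30, 6 and 5, and 15 and 14. Il25 had 0 counts in both libraries of day 5. This was not so for every gene or day: Utp14b had 4 and 15 counts on day 4, and Snx12 10 and 27, 6 and 17, and 56 and 80 on days 4, 5 and 6. The log2 changes of the 8 genes with the 3-day block were 2.41 ± 0.33 for Ccn4, 2.29 ± 0.34 for Trpm8, 2.41 ± 0.37 for Il25, 2.07 ± 0.37 for Fhad1, 2.09 ± 0.36 for Fam184b, 1.78 ± 0.29 for Utp14b, 1.52 ± 0.29 for Chd9 and 1.21 ± 0.29 for Snx12. Without a block their edgeR adjusted p was between 0.687 and 0.803. Ccn4 (0.048), Il25 (0.0497) and Chd9 (0.0339) were also called with the block over 11 libraries. What sets the counts of these genes was not tested.

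A related pattern, singled out after its values were seen, appeared in Rfx2, a transcription factor of ciliated cells (chromosome 17, 56775900 to 56831008). It had 43, 22, 7 and 2215 counts in ipsilateral replicates 2, 4, 5 and 6, and 29, 266, 11 and 710 in contralateral replicates 1, 4, 5 and 6. Fam183b, chosen in the same way, had 18, 9, 2 and 192 against 1, 31, 2 and 71. In CPM, Rfx2 measured 321, 645, 86.6 and 19056 against 195, 2034, 37.0 and 1261, and Fam183b 135, 264, 24.7 and 1652 against 6.74, 237, 6.73 and 126. Ipsilateral replicate 6 was far above the others for both genes, while on the opposite side replicate 4 was the highest. Their log2 changes of 2.57 ± 1.74 and 2.64 ± 1.26 exceeded those of all tested genes but Hspa1a, Hspa1b and Fos, but did not pass (edgeR adjusted p = 0.785 and 0.68), and without ipsilateral replicate 6 that of Rfx2 was -1.53.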

How the data were processed

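Footprints were measured in 11 mouse cortex libraries. Per the labels' protocols, protected fragments from purified monosomes were size-selected on a gel and read as single ends. The deposited table holds raw counts per Ensembl transcript, whole numbers made by the authors; the submitters' processing notes list Bowtie2, edgeR and mm10 with no role for any of them. Nothing names the tool that counted reads, its strand setting or its filters. Each of its 9784 transcripts has at least 101 counts over all libraries, so rarer transcripts are not analysed here. By identifier, 9736 matched GENCODE vM21; the other 48 held 0.306% of counts and were left out. Isoforms share reads (2219 transcripts repeat another of their gene), so 1 transcript per gene was kept.

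Genes were tested with edgeR 4.0.16 (R 4.3.3): filterByExpr with a minimum count of 10 (3835 of 4338 genes kept), TMM scaling, robust quasi-likelihood fits of all 11 libraries in 3 groups, and Benjamini-Hochberg adjustment over all genes at 0.05. The common dispersion was 0.0291. CPM are TMM-scaled; within-day differences use log2 CPM with a prior count of 2. An SE is the log2 change divided by the square root of F. Alternatives used DESeq2 1.42.0, limma 3.58.1 (voom), other scalings and filters, other transcripts, a day block, and leaving out each library. The fits were tested on simulated data. Figures were drawn with matplotlib 3.10.9 in Python 3.11.15.

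The design text says that replicate sets come from distinct days of surgery. Deviations from group means correlated across genes at r = 0.115, 0.176 and 0.131 between same-numbered libraries of days 4, 5 and 6. For the 13 other pairs across the hemispheres r was -0.25 to 0.162 (median -0.0463), so the ranges overlapped. No 2 libraries were copies: within groups the chi-square per degree of freedom was 1.4 to 3.06. Nothing states that replicates are single animals, so p-values measure the spread between these libraries. Members and gene lists were chosen with earlier results of these data known, and lists are described by counts and medians. Genes were named by a rule: all called genes, the next by p up to 30, per list the 3 lowest p and the 2 most abundant, all of lists with 6 or fewer tested members, and genes called only with the block or by DESeq2. Rfx2 and Fam183b fall outside it. Some genes that the rule names are not reported here; they stay in the fits, counts and list sums. Upstream windows came from RefSeq (GRCm38.p6) and were found for 46 of 63 named genes; 7 held GAANNTTC or TTCNNGAA and 13 TGACG or CGTCA on either strand. A low depth limits ratios: 1 count in the shallowest library is a large share of a weak gene, and 3 counts are still allowed by a 0.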

Additional observations from a re-analysis of the deposited data

Results flagged for a closer look

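In groups of 4 libraries, 1 library lay far from the other 3 in 14 of 140 groups tested (10%), by Dixon's test at its 95% critical value, which by its construction flags about 1 in 20 groups by chance; the groups are not independent. On the occluded side, Sparc was high in replicate 2 (1278 CPM, the others 445 to 557). Ccn4 (1027 CPM), Trpm8 (1144 CPM) and Chd9 (704 CPM) were high in replicate 4, the shallowest library. Utp14b (783 CPM), Rfx2 (19056 CPM) and Fam183b (1652 CPM) were high in replicate 6. The summed microglia markers were low in replicate 5 (5171 CPM, the others 6046 to 6220).

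On the opposite side, Per1 was high (121 CPM) and Mt2 low (87.6 CPM) in replicate 1, the library whose day has no ipsilateral partner. In the same library the summed meningeal, fibroblast and choroid plexus markers were low (1960 CPM) and the summed striatal markers high (1482 CPM, the others 818 to 929). Egr1 was low in replicate 4 (130 CPM, the others 167 to 168), and Fhad1 was high in replicate 6 (94.1 CPM, the others 10.1 to 15.3).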

How the results depend on the processing

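Of 1465 values of named genes under the alternatives, 1327 kept their direction and side of the threshold, 82 kept the direction but lost the call, 53 gained one and 3 turned direction, all without ipsilateral replicate 6: Fam184b (-0.12), Snx12 (-0.06) and Rfx2 (-1.53). Leaving out 1 library in turn, their log2 changes reached from these values up to 2.71, 1.24 and 3.24. Only 12 of the 63 named genes were called, and a gene that stayed uncalled counts among the 1327. The 82 losses therefore all fell on these 12 genes, and the pooled count says little about how stable the calls are. Against 14 called genes, upper quartile scaling gave 8, a minimum count of 30 gave 8, the 3 shared days gave 26 with and 3 without the replicate block, and leaving out the 2 shallowest hemisphere libraries (chosen after seeing the data) gave 24. The replicate block over 11 libraries gave 11, of which 8 were shared. Leaving out 1 library gave 4 to 26: 4 without contralateral replicate 6, 5 without contralateral replicate 1, 6 without ipsilateral replicate 2, 9 without contralateral or ipsilateral replicate 4, and 26 without ipsilateral replicate 5. The cause was not tested. DESeq2 called 11, all shared, and limma-voom 10, 9 of them shared. Hspa1a and Hspa1b stayed called in 23 of 24 alternatives, Nptx2 in 23 of 24 and Fos in 22 of 23. Of 24 alternatives, Hba-a1 stayed called in 20, Mbp and Cacna2d1 in 17 each, Hba-a2 in 15, Mag in 11 and Cldn11 in 8. Cryab stayed called in 18 of 23 and Dnajb1 in 6 of 23. Leaving out a library, adding the block or taking out near-identical copies moved list medians by more than 1 SD between libraries in 6 of 290 cases: calcium channel subunits to -0.18 and postsynaptic scaffold genes to -0.12 without ipsilateral replicate 6, glutamate transport genes to -0.06 without ipsilateral replicate 2, excitatory markers to -0.18 without contralateral replicate 6, and inhibitory markers to 0.27 without contralateral replicate 4 or ipsilateral replicate 5. Upper quartile scaling, which took the median of all genes from 0.013 to -0.053, also turned the sign of the medians of calcium channel subunits (0.011 to -0.055), astrocyte markers (0.018 to -0.040), translation factors (0.038 to -0.026), chromogranins (0.036 to -0.029) and antioxidant genes (0.009 to -0.055). Depth limits most genes: at 35068 counts a weak gene has few counts, and a missed call does not show that hemispheres are alike.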
